A study of Bos indicus with 6 samples.

Results

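The genes described here are the enzymes and thiol proteins that detoxify superoxide, hydrogen peroxide and organic peroxides: the superoxide dismutases, catalase, the glutathione peroxidases, the peroxiredoxins, the thioredoxin system, the enzymes that make and reduce glutathione, the soluble and membrane-bound glutathione transferases, the regulator NFE2L2 (NRF2) with its target NQO1, and the selenoproteins SELT and SELV. They were taken by gene symbol from the isthmus expression values, which gave 47 members (46 symbols, since GSTM1 has 2 entries) of 24616 genes. GPX1, SOD3 and TXNRD3 belong to the same families by name, but the expression values hold no entry under these symbols, so they were not analysed here. The isthmus is the segment of the oviduct next to the uterus. The samples came from 6 healthy multiparous Nelore cows, a Bos indicus beef breed, with 1 library per cow. In all cows a prostaglandin F2α analog (cloprostenol) and a GnRH agonist (buserelin) set a common starting point, and an intravaginal progesterone device with estradiol benzoate followed. In 3 cows (LF/LCL: large follicle, large corpus luteum) cloprostenol was also given at device insertion and the device was removed 42 h before the GnRH injection that induced ovulation, and in the other 3 (SF/SCL: small follicle, small corpus luteum) the device was removed 30 h before it. Cloprostenol was given to all cows at device removal and again later that day, and the isthmus was collected on day 4. The authors chose the top-ranked LF/LCL and the bottom-ranked SF/SCL animals for sequencing, so the 6 cows are extremes of their groups. The question was whether the isthmus transcriptome differed between the groups at that time.

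Superoxide dismutases turn superoxide into hydrogen peroxide, which catalase, the glutathione peroxidases and the peroxiredoxins then reduce to water. Glutathione peroxidases draw their electrons from glutathione and most peroxiredoxins draw theirs from thioredoxin, and both carriers are recharged by reductases that use NADPH. Glutathione transferases join glutathione to reactive compounds such as lipid aldehydes, and in the oviduct these systems act on the epithelium and on the fluid in which sperm and embryo are held.

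The unit is the normalized count, which is the number of reads of a gene divided by the size factor of its library. The values are not divided by gene length, so the levels of different genes are not compared. The libraries held 23899117 to 34193164 reads, and 0 reads in a library allows an expected count of up to 3 (a one-sided 95% limit, for counting error only). Log2 fold changes are SF/SCL over LF/LCL on log2(normalized count + 1), so that a positive value is higher in SF/SCL, and they understate the change of genes with few reads. The library of SF/SCL cow 489215 stood apart from the other 5. Over the 15387 genes tested, the median residual SD was 0.435 on the log2 scale with all cows and 0.184 without that cow, so the members' fold changes are given with and without it. The summed markers of smooth muscle were 745927 to 861574 normalized counts in LF/LCL, 349892 and 408957 in SF/SCL cows 856 and 97, and 1235372 in cow 489215. The 11 markers listed for secretory epithelium summed to 33868 to 49268 in LF/LCL, to 326673 and 387357 in cows 856 and 97, and to 80843 in cow 489215. EPCAM, ESRP1, MUC1 and the keratins and claudins of this list are general epithelial genes, not particular to secretory cells. OVGP1, the oviductal glycoprotein, held 271794 and 325158 of the sums of cows 856 and 97, but 730 of that of cow 489215 and 287 to 1950 in LF/LCL. Without OVGP1, left out after its values were seen, the other 10 markers summed to 31918 to 48982 in LF/LCL, to 54880 and 62199 in cows 856 and 97 and to 80113 in cow 489215, the highest of the 6. PAX8, a marker in that sum, was lowest in cow 489215, at 469. Ciliated epithelium markers summed to 44766 to 57198 in LF/LCL, to 84518 and 90177 in cows 856 and 97, and to 51223 in cow 489215. Single markers of that list differed in cow 489215. FOXJ1 (2609), DNAH5 (626), DNAI2 (438), DNAH9, TEKT1 and CCDC40 were below every LF/LCL cow. TPPP3 (17185), DNAI1 and CCDC39 were above every LF/LCL cow, and CAPS (19117), RSPH1, RSPH4A and SPAG6 were within their range. Those of fibroblasts summed to 107469 to 140626 in LF/LCL and to 67578 to 100670 in SF/SCL. In the same order, those of endothelium summed to 13671 to 17561 and 11347 to 16743, and those of leukocytes to 2577 to 4552 and 2258 to 4008. Mesothelial markers summed to 2452 to 3314 in LF/LCL, to 26249 and 26728 in cows 856 and 97 and to 3483 in cow 489215. MSLN and WT1 carried that sum, and LRRN4 of the same list ran the other way, at 175 to 412 in LF/LCL and 3.80 to 16.3 in SF/SCL. Uterine markers summed to 3754 to 4438 in LF/LCL, 1164 and 1586 in cows 856 and 97 and 9056 in cow 489215, with HOXA13 at 0 in all 6 cows. Erythrocyte markers stayed at 7.03 to 26.6 normalized counts, with 1 of the 6 passing the filter on low values. In whole tissue fewer cells of a type and less RNA per cell cannot be told apart, and the part of these cell types in the results was not tested.

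Between the groups no member passed the test in all 6 cows. Of the 47 members, 44 passed the filter on low values, and 0 of them had an adjusted p under 0.05 (limma with Benjamini-Hochberg adjustment), as did 0% of the 15387 genes tested. The lowest adjusted p among the members was 0.351, which was also the lowest over all genes. At an unadjusted p under 0.05, 5 members were higher in SF/SCL (MGST2, GSTK1, PRDX6, MGST1 and GPX2), against 4.19% of all genes, and 2 were higher in LF/LCL (SELV and TXNRD1), against 4.48%. The quasi-likelihood test of edgeR on the reads also called 0 genes of the 15387, with 1307 at an unadjusted p under 0.05, close to the 1333 of limma. The Wald test of DESeq2 called 4 members higher in SF/SCL (PRDX6, MGST1, MGST2 and GSTK1), where 1.38% of all genes were called in that direction, and 0 members higher in LF/LCL, where the share of all genes was also 1.38%. Without cow 489215, limma called 5 of 45 members higher in SF/SCL (PRDX6, MGST1, MGST2, GSTK1 and GCLM), against 10.3% of all genes, and 5 higher in LF/LCL (GPX7, GSTM3, GSTA4, PRDX2 and TXNRD1), against 7.92%. The shares without cow 489215 lie near the ones of all genes. No test of the members as a set was run, so none of these counts is a result about the set.

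By sign alone, 35 members were higher in SF/SCL and 9 in LF/LCL, with a median log2 fold change of 0.21, while 7472 of all genes were higher in SF/SCL and 7915 in LF/LCL, with a median of -0.02. Cow 489215 carried that tilt: without it 23 of 45 members were higher in SF/SCL and 22 in LF/LCL, with a median of 0.003. That cow had the highest level of all 6 cows in 35 of 44 members, whereas 36.7% of all genes were highest in it. It had the lowest level of SELV, GCLC and SOD2 among the members tested. The groups did not overlap for 8 members higher in SF/SCL (GSTT1, TXNRD2, GSTM4, GPX2, PRDX6, MGST1, MGST2 and GSTK1), against 9.51% of all genes, and for 2 higher in LF/LCL (SELV and TXNRD1), against 8.60%. For a gene whose groups do not overlap, an exact two-sided permutation test over 3 and 3 cows gives 0.1, the smallest p the design allows.

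**Figure D1:**
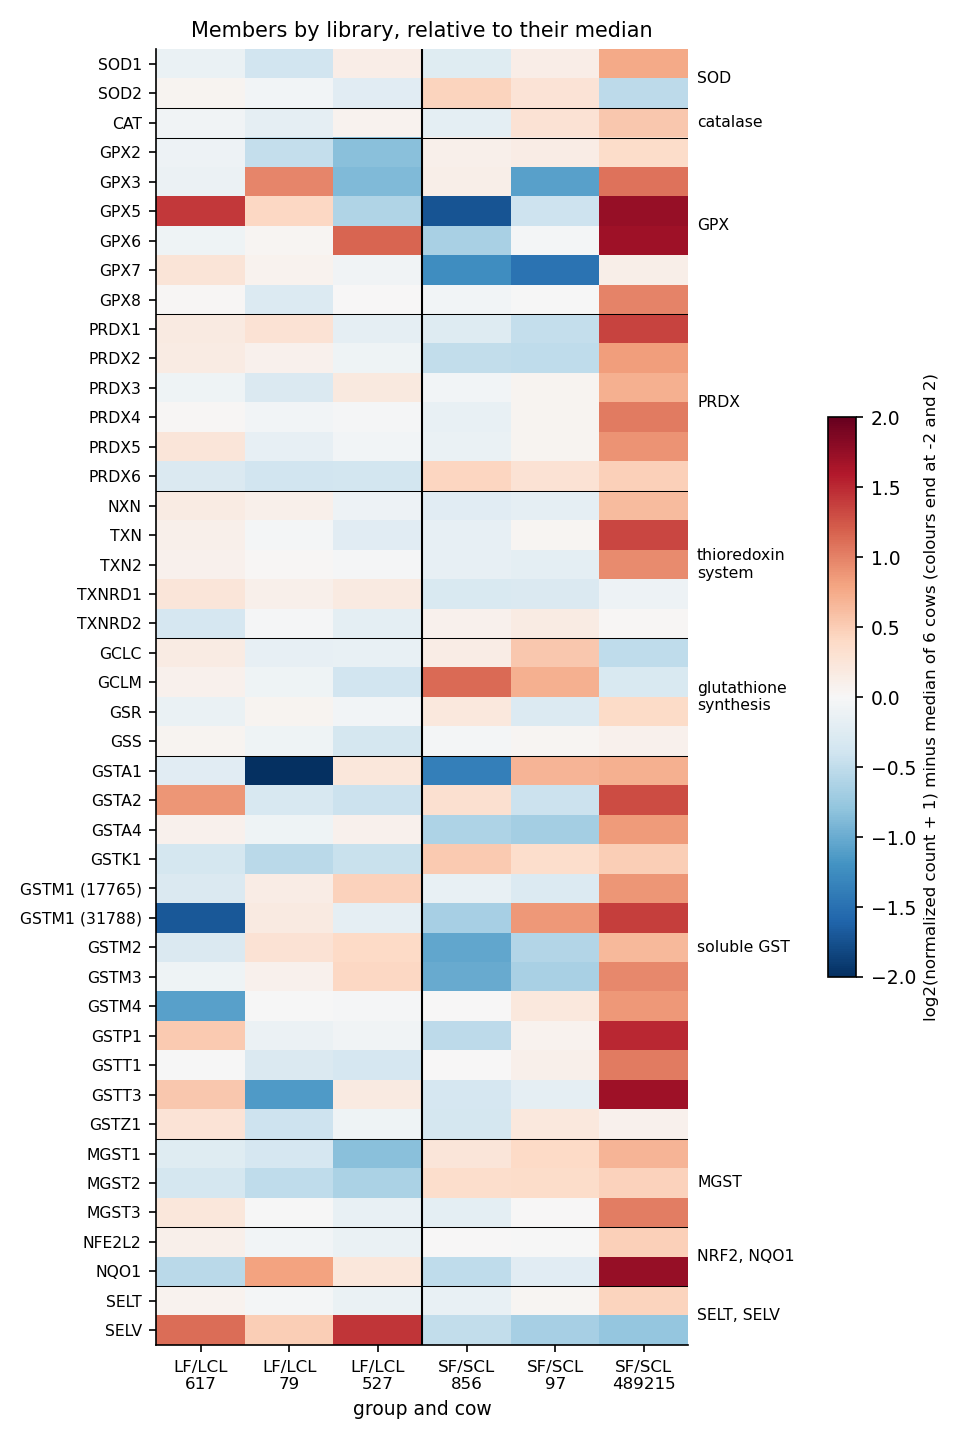
The 44 members tested (one per line, grouped by role) in the 6 libraries (columns), coloured by log2(normalized count + 1) minus the median of the 6 cows. Cow 489215, in the last column, is the reddest in 35 of the 44 lines, and PRDX6, GSTK1, MGST1 and MGST2 are among the lines in which all 3 SF/SCL columns are red and all 3 LF/LCL columns blue.

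Of the 3 membrane-bound glutathione transferases, MGST1 and MGST2 separated the groups and MGST3 did not. MGST2 (ENSBTAG00000021779), a membrane enzyme that makes leukotriene C and also reduces lipid peroxides, had normalized counts of 1747, 1570.3 and 1439.6 in LF/LCL cows 617, 79 and 527, and of 2854.5, 3082 and 2888 in SF/SCL cows 856, 489215 and 97. All 3 SF/SCL cows lay well above all 3 LF/LCL cows, and cow 489215 was close to its group. The means were 1586 ± 154 in LF/LCL and 2942 ± 123 in SF/SCL (SD, n = 3), a log2 fold change of 0.89 ± 0.16 (SE) with an unadjusted p of 0.00103 and an adjusted p of 0.351 in limma. DESeq2 gave an adjusted p of 0.00013, and without cow 489215 limma gave 0.86 with an adjusted p of 0.00527. MGST1 (ENSBTAG00000008541), a glutathione transferase and peroxidase of the endoplasmic reticulum and the outer mitochondrial membrane, stood at 3541, 3344 and 2348 in the LF/LCL cows and at 4999, 6742 and 5552 in the SF/SCL cows, in the same order. Here too the groups were apart, with the lowest level in cow 527 and the highest in cow 489215. Its means were 3078 ± 639.7 and 5764 ± 891, with a log2 fold change of 0.92 ± 0.23 (SE) and an adjusted p of 0.381 in limma. The adjusted p was 0.0338 in DESeq2 and 0.0315 in limma without cow 489215, where the log2 fold change was 0.80. MGST3, the remaining membrane enzyme, ranged from 2656 to 3425 in LF/LCL and was 2561, 5996 and 2962 in cows 856, 489215 and 97, so its groups overlapped (log2 fold change of 0.26, adjusted p of 0.891 in limma, and -0.11 without cow 489215). MGST3 made up 37.2% to 41.2% of the summed counts of the 3 membrane enzymes in LF/LCL, 24.6% and 26.0% in cows 856 and 97, and 37.9% in cow 489215. Beside this stands the level of the markers listed for secretory epithelium, mostly general epithelial genes. As a sum these were higher in all 3 SF/SCL cows than in any LF/LCL cow, with or without OVGP1. Single markers of that list differed: in cow 489215 PAX8, at 469, was below every LF/LCL cow (503 to 663). OVGP1 in that cow, at 730, was inside the LF/LCL range of 287 to 1950. Of the 10 markers tested, 9 were higher in SF/SCL, and their part in the difference was not tested.

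Among the 13 soluble glutathione transferases tested, GSTK1 was the one with an unadjusted p under 0.05, and GSTT1 and GSTM4 were the others whose groups did not overlap. GSTK1 (ENSBTAG00000009839), the kappa class enzyme of mitochondria and peroxisomes, had 696, 612 and 649 normalized counts in LF/LCL cows 617, 79 and 527 and 1275, 1254 and 1133 in SF/SCL cows 856, 489215 and 97. The groups were far apart and each was tight. The means of 652 ± 42.1 and 1221 ± 77.1 (SD, n = 3) gave a log2 fold change of 0.90 ± 0.18 (SE), with an adjusted p of 0.367 in limma and of 8.93e-05 in DESeq2. Without cow 489215 limma gave 0.88 with an adjusted p of 0.00643. GSTT1, of the theta class, was at 2614, 2135 and 2062 in LF/LCL and at 2614, 5353 and 2809 in SF/SCL. Cows 617 and 856 had nearly the same GSTT1 value, 2613.5 and 2613.7, so that the groups almost touched, and the log2 fold change of 0.59 ± 0.31 (SE), adjusted p of 0.672 in limma, was 0.26 without cow 489215. GSTM4, of the mu class, was as close, with 337.9 in LF/LCL cow 79 and 338.01 in SF/SCL cow 856, 159 and 331 in cows 617 and 527, and 619 and 392 in cows 489215 and 97.

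GSTA4, which clears hydroxynonenal formed from oxidized lipids, had 1941, 1739 and 1944 normalized counts in LF/LCL cows 617, 79 and 527, and 1194, 3304 and 1144 in SF/SCL cows 856, 489215 and 97. Cows 856 and 97 lay below every LF/LCL cow and cow 489215 lay above them. With all cows the log2 fold change was -0.18 ± 0.42 (SE), and without cow 489215 it was -0.68 with an adjusted p of 0.00805 in limma. GSTM3, a mu class enzyme, followed the same layout, with 1491, 1686 and 2115 in LF/LCL against 786, 3074 and 1013 in SF/SCL. GSTM3 had a log2 fold change of -0.37 ± 0.51 (SE) with all cows and of -0.97 without cow 489215, with an adjusted p of 0.0175 in limma. GSTA2, an alpha class enzyme of steroid-producing and liver cells, varied within both groups, from 194 to 485 in LF/LCL and from 194 to 647 in SF/SCL (log2 fold change of 0.35 with all cows and -0.11 without cow 489215). The alpha and mu classes are built of close paralogs, so the authors' counting of uniquely mapped reads could have split or lost reads between them. Whether it did was not tested, and the values of GSTA1, GSTA2, GSTA4, GSTA5 and GSTM1 to GSTM4 carry that uncertainty. The other soluble enzymes had log2 fold changes from -0.46 (GSTM2) to 1.49 (GSTA1) with all cows, where these 2 were -0.95 and 1.13 without cow 489215, and none of those had an unadjusted p under 0.05 in limma with all cows. Of the 13 soluble enzymes tested, 11 were highest in cow 489215. GSTO2 stayed between 0 and 4 reads per library and did not pass the filter.

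Of the peroxiredoxins, PRDX6 alone separated the groups. PRDX6 (ENSBTAG00000004855), which uses glutathione in place of thioredoxin and also acts as a phospholipase, had 13609, 12813 and 12959.9 normalized counts in LF/LCL cows 617, 79 and 527, and 22376, 23073 and 20376 in SF/SCL cows 856, 489215 and 97. The LF/LCL cows differed little among themselves and every SF/SCL cow was far above them, cow 489215 included. The means were 13127 ± 423 and 21942 ± 1399.9 (SD, n = 3), a log2 fold change of 0.74 ± 0.17 (SE), with an unadjusted p of 0.0042 and an adjusted p of 0.381 in limma. DESeq2 gave an adjusted p of 0.00025, and limma without cow 489215 gave 0.70 with an adjusted p of 0.00527. PRDX2, a cytosolic peroxiredoxin that depends on thioredoxin, ran the other way in most cows, with 8615, 8192 and 7285 in LF/LCL and 5479, 13829 and 5418 in SF/SCL. Cows 856 and 97 were below all LF/LCL cows and cow 489215 was above all of them. For PRDX2 the log2 fold change was -0.11 ± 0.39 (SE) with all cows, was 0.03 on the reads in DESeq2, and was -0.56 without cow 489215, with an adjusted p of 0.0149 in limma. PRDX1, its near relative in the cytosol, had the same layout, from 5965 to 8250 in LF/LCL, 5649 and 4862 in cows 856 and 97 and 17177 in cow 489215. Without that cow its log2 fold change was -0.46 with an adjusted p of 0.0896 in limma, which missed the threshold. The mitochondrial PRDX3, the secretory pathway's PRDX4 and PRDX5 had log2 fold changes of 0.30, 0.33 and 0.27 with all cows and of 0.06, -0.03 and -0.04 without cow 489215, and none of the 3 passed the test. All 6 peroxiredoxins were highest in cow 489215.

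The make-up of the peroxiredoxin counts differed accordingly. PRDX6 held 34.0%, 34.1% and 36.1% of the summed normalized counts of the family in the 3 LF/LCL cows, 52.9% and 50.3% in SF/SCL cows 856 and 97, and 32.3% in cow 489215. By this share cow 489215 was below the LF/LCL cows, although its PRDX6 count was the highest of all. The other 5 peroxiredoxins of that cow were 1.71 to 2.88 times the median of the other 5 cows, and PRDX6 was 1.69 times it. PRDX2 held 20.3% to 21.8% in LF/LCL, 12.9% and 13.4% in cows 856 and 97, and 19.4% in cow 489215.

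**Figure D2:**
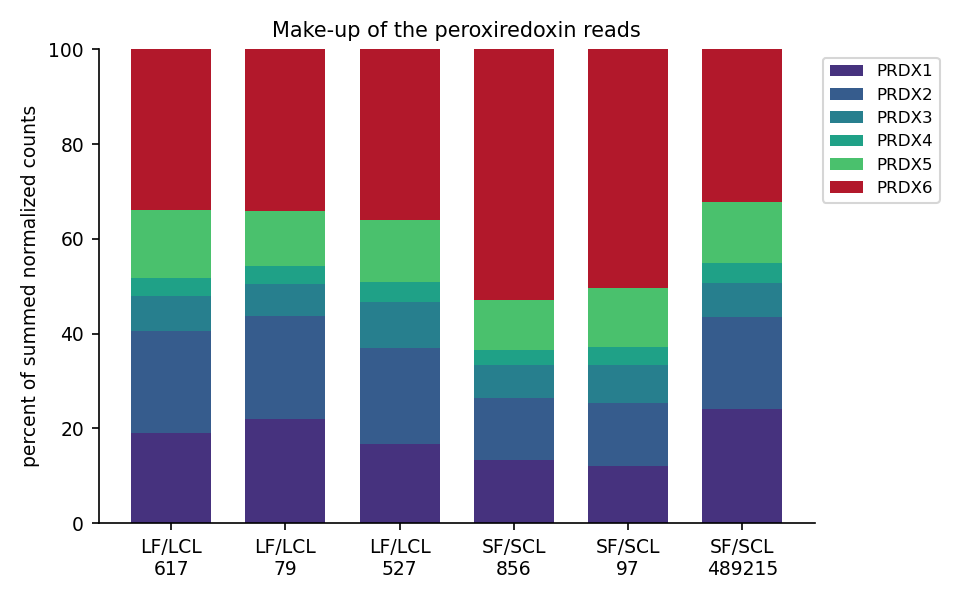
Share (percent) of each of the 6 peroxiredoxins in their summed normalized counts, 1 bar per cow, with the 3 LF/LCL cows at the left. The PRDX6 segment covers 52.9% and 50.3% in cows 856 and 97, and between 32.3% and 36.1% in the other 4 cows.

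Of the glutathione peroxidases, GPX2 was higher in SF/SCL and GPX7 was lower in 2 of the 3 SF/SCL cows. GPX2 (ENSBTAG00000048112), a selenium enzyme typical of epithelia, had 1358, 1053 and 818 normalized counts in LF/LCL cows 617, 79 and 527 and 1569, 1873 and 1620.2 in SF/SCL cows 856, 489215 and 97. The lowest SF/SCL cow was above the highest LF/LCL cow, with more spread in LF/LCL. The means were 1076 ± 271 and 1688 ± 163 (SD, n = 3), with a log2 fold change of 0.67 ± 0.23 (SE), an unadjusted p of 0.025 and an adjusted p of 0.485 in limma. Neither DESeq2, with an adjusted p of 0.242, nor limma without cow 489215, with 0.0939, called it. GPX7 (ENSBTAG00000018281), a peroxidase of the endoplasmic reticulum that passes oxidation on to folding proteins, had 680.3, 595 and 541 in LF/LCL and 239, 614 and 204 in SF/SCL. Cows 856 and 97 were far below the LF/LCL cows and cow 489215 was within their range. The log2 fold change was -0.96 ± 0.44 (SE) with an adjusted p of 0.625 in limma with all cows, and -1.45 with an adjusted p of 0.0039 without cow 489215. GPX8, the other peroxidase of that compartment, did not follow: it was 1759.9 to 2146 in LF/LCL, 2032 and 2100.3 in cows 856 and 97 and 4206 in cow 489215 (log2 fold change of 0.38 with all cows and 0.04 without that cow).

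GPX3, the secreted plasma enzyme, had 2657, 5668 and 1563 normalized counts in LF/LCL and 3129, 6096 and 1359 in SF/SCL. It varied 3.63-fold within LF/LCL, its groups overlapped fully, and the log2 fold change was 0.05 ± 0.66 (SE), with an adjusted p of 0.989 in limma. GPX5, known from the epididymis, and GPX6, known from the olfactory organ, were counted at 13 to 91 and at 8 to 27 reads per library. GPX4, the enzyme that reduces lipid hydroperoxides within membranes and is used by most cells, was listed at 0 reads in 4 cows and at 1 read each in cows 489215 and 97. No level of GPX4 can be given from that entry.

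In the thioredoxin system TXNRD1 was higher in LF/LCL, while thioredoxin itself did not separate the groups. TXNRD1 (ENSBTAG00000013912), the cytosolic selenoenzyme that recharges thioredoxin, had 2234, 2008 and 2119 normalized counts in LF/LCL cows 617, 79 and 527 and 1528, 1763 and 1545 in SF/SCL cows 856, 489215 and 97. Every LF/LCL cow was above every SF/SCL cow, and cow 489215 was the nearest to LF/LCL. The means were 2120.2 ± 113 and 1612 ± 131 (SD, n = 3), with a log2 fold change of -0.40 ± 0.16 (SE), an unadjusted p of 0.0446 and an adjusted p of 0.562 in limma. DESeq2 gave an adjusted p of 0.251, and limma without cow 489215 gave -0.46 with an adjusted p of 0.0196. TXN, the cytosolic thioredoxin, had 2994, 2714 and 2382 in LF/LCL and 2503, 7046 and 2891 in SF/SCL. Only cow 489215 lay outside the LF/LCL range, and the log2 fold change of 0.47 ± 0.40 (SE) was 0.003 without it. NXN, nucleoredoxin, a thioredoxin-like regulator of Wnt signalling, had 4912, 4703 and 4128 in LF/LCL and 3784, 6855 and 3909 in SF/SCL. NXN had a log2 fold change of 0.03 ± 0.27 (SE), which was -0.03 when the reads were scaled by library size alone, and was -0.25 without cow 489215, where the adjusted p was 0.145 in limma. TXN2 and TXNRD2, the mitochondrial pair, had log2 fold changes of 0.16 and 0.27, neither with an unadjusted p under 0.05 in limma, and of -0.21 and 0.30 without cow 489215, with adjusted p-values of 0.141 and 0.231.

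**Figure D3:**
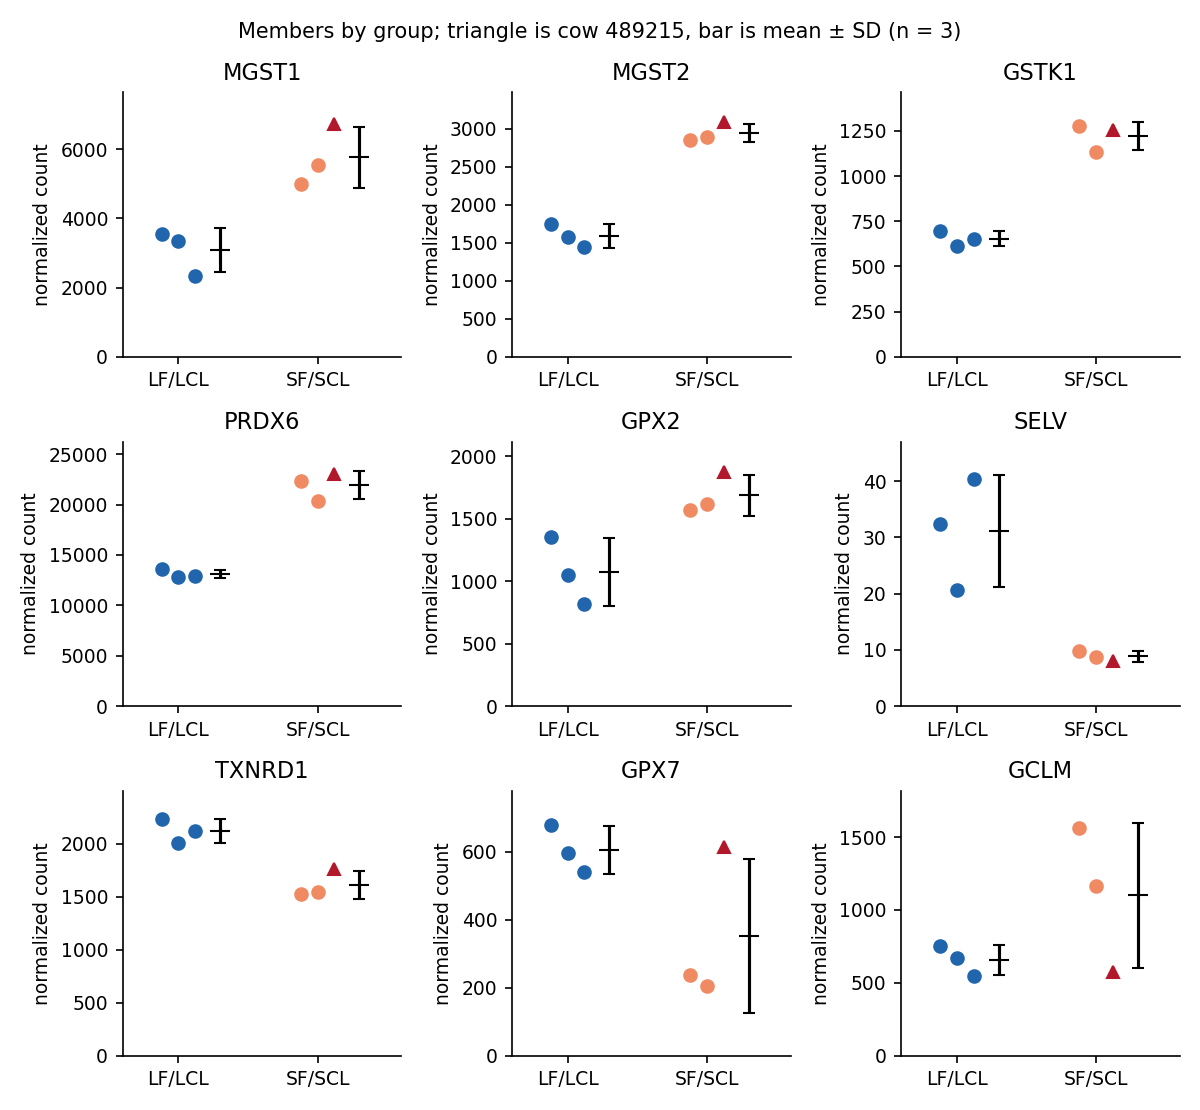
Normalized counts (vertical axes, starting at 0) of 9 members in the 3 LF/LCL and 3 SF/SCL cows, with the mean ± SD (n = 3) beside the points and cow 489215 as a triangle. For MGST1, MGST2, GSTK1, PRDX6 and GPX2 the SF/SCL points are all above the LF/LCL points, for SELV and TXNRD1 they are all below, and for GPX7 and GCLM the triangle lies with the LF/LCL cows, at 614 and 572.

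Of the enzymes that make and recycle glutathione, GCLM was called only when cow 489215 was left out. GCLM (ENSBTAG00000007842), the modifier subunit of glutamate-cysteine ligase, the rate-limiting enzyme of glutathione synthesis, had 754, 667 and 546 normalized counts in LF/LCL cows 617, 79 and 527 and 1562, 572 and 1166 in SF/SCL cows 856, 489215 and 97. Cows 856 and 97 were above all LF/LCL cows and cow 489215 was within their range. The log2 fold change was 0.64 ± 0.39 (SE) with an adjusted p of 0.743 in limma with all cows, and 1.05 with an adjusted p of 0.0147 without that cow. GCLC, the catalytic subunit, had 518, 417 and 419.8 in LF/LCL and 514, 326 and 673 in SF/SCL, and its groups overlapped (log2 fold change of 0.11 ± 0.31 (SE), and 0.39 with an adjusted p of 0.178 in limma without cow 489215). GCLM made up 56.5% to 61.6% of the summed counts of the 2 subunits in LF/LCL, and 75.2%, 63.7% and 63.4% in SF/SCL cows 856, 489215 and 97. By that share the groups did not overlap, although cows 489215 and 97 were close to the top of LF/LCL. GSR, glutathione reductase, had 329.7, 375 and 349.6 in LF/LCL and 421, 471 and 298 in SF/SCL, a log2 fold change of 0.15 ± 0.26 (SE), and of 0.01 without cow 489215. GSS, glutathione synthetase, was between 574 and 774 in all cows, with a log2 fold change of 0.15 and 0.13 without cow 489215.

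The superoxide dismutases and catalase did not differ between the groups beyond their spread. SOD1, the copper-zinc enzyme of the cytosol, had 1884, 1572 and 2253 normalized counts in LF/LCL and 1740.2, 3499 and 2262 in SF/SCL (log2 fold change of 0.35 ± 0.30 (SE), adjusted p of 0.836 in limma, and 0.08 without cow 489215). SOD2, the manganese enzyme of mitochondria, had 368, 342 and 302 in LF/LCL and 484, 248 and 429 in SF/SCL. The 2 dismutases had opposite positions in cow 489215, which was the highest for SOD1 and the lowest for SOD2. The log2 fold change of SOD2 was 0.14 ± 0.31 (SE) with all cows and 0.44 without that cow, with an adjusted p of 0.102 in limma. CAT, the peroxisomal catalase, had 7880.3, 7309 and 8631 in LF/LCL and 7192, 12024 and 10026 in SF/SCL. Its groups overlapped, and the log2 fold change was 0.27 ± 0.23 (SE) with all cows and 0.10 without cow 489215.

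NFE2L2 (NRF2), the factor that switches on many of these genes under oxidative or electrophilic stress, had 9149, 8194 and 7754 normalized counts in LF/LCL and 8539.95, 11848 and 8472 in SF/SCL. Cows 856 and 97 were inside the LF/LCL range, and the log2 fold change of its RNA was 0.19 ± 0.21 (SE) with all cows and 0.03 without cow 489215. NQO1, the quinone reductase that is a standard NRF2 target, had 925, 2363 and 1571 in LF/LCL and 941, 4525 and 1151 in SF/SCL. It varied 2.55-fold within LF/LCL and its groups overlapped (log2 fold change of 0.17 ± 0.65 (SE), and -0.54 without cow 489215).

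Of the selenoproteins T and V, SELV was higher in LF/LCL. SELV (ENSBTAG00000010501), a thioredoxin-like selenoprotein known mainly from the testis, had 32.4, 20.6 and 40.4 normalized counts in LF/LCL cows 617, 79 and 527 and 9.88, 7.99 and 8.67 in SF/SCL cows 856, 489215 and 97. These rest on 31, 22 and 46 reads in LF/LCL and on 13, 6 and 8 reads in SF/SCL, with exact 95% Poisson intervals from 13.8 to 33.3 for the lowest LF/LCL cow and from 6.92 to 22.2 for the SF/SCL cow with the most reads, which overlap and cover counting error only. All 3 LF/LCL cows were above all 3 SF/SCL cows, and cow 489215 was close to the rest of its group. The log2 fold change was -1.66 ± 0.43 (SE), with an unadjusted p of 0.00715 and an adjusted p of 0.405 in limma. DESeq2 gave an adjusted p of 0.0517 and limma without cow 489215 gave -1.60 with an adjusted p of 0.058, both just above the threshold of 0.05. SELT, a selenoprotein of the endoplasmic reticulum, had 3869, 3568 and 3343 in LF/LCL and 3309, 5009 and 3796 in SF/SCL, with a log2 fold change of 0.15 ± 0.20 (SE), and -0.02 without cow 489215.

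**Figure D4:**
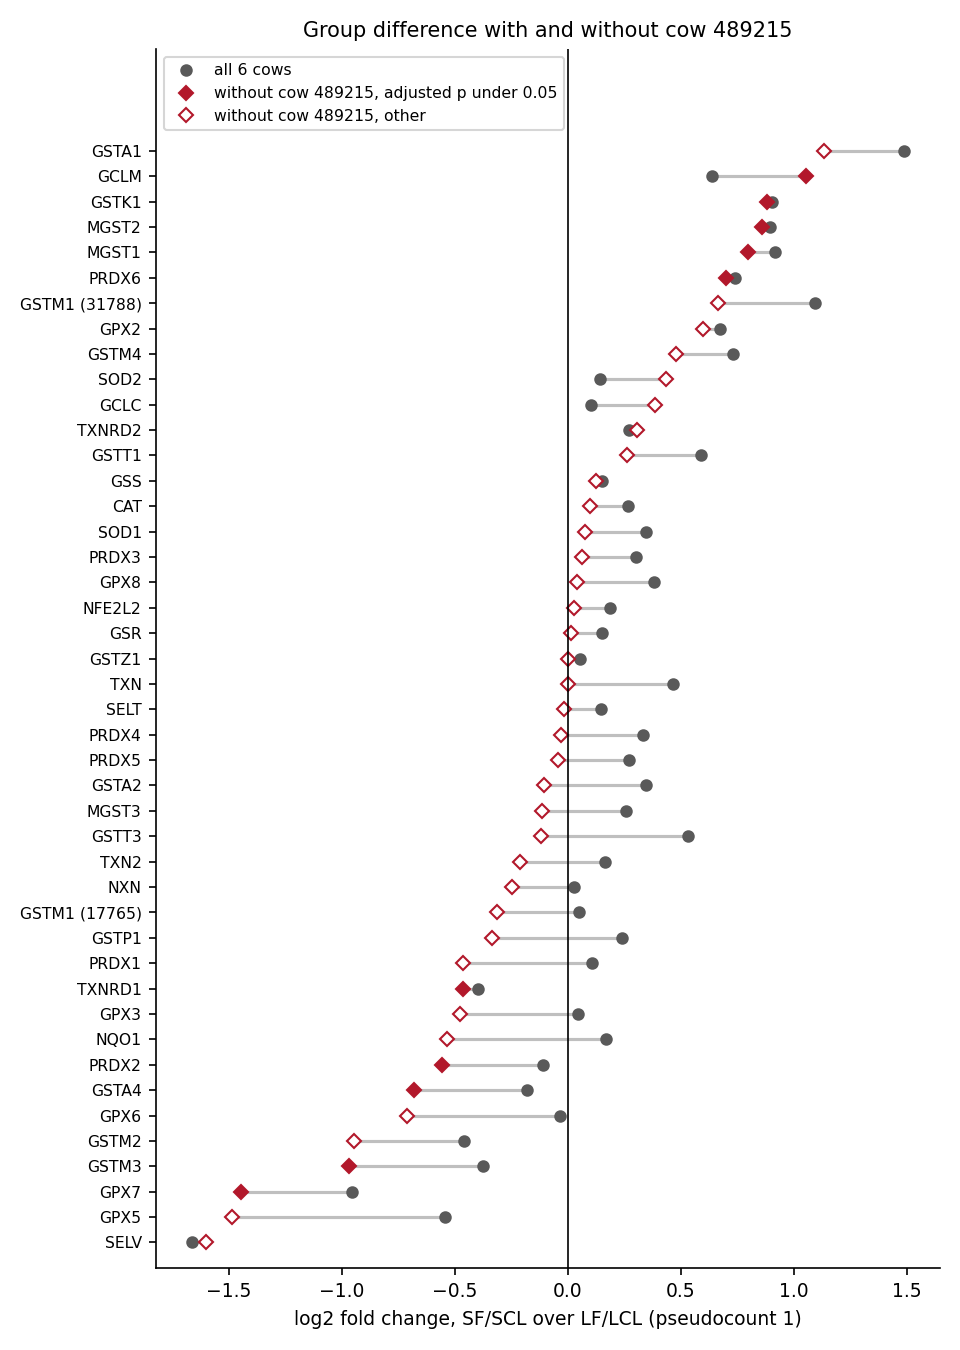
Log2 fold change (SF/SCL over LF/LCL, horizontal axis) of the 44 members tested in all 6 cows, with all cows (grey) and without cow 489215 (red, filled where the adjusted p of limma was under 0.05). The median of the 44 moves from 0.21 to -0.007, while PRDX6, MGST1, MGST2 and GSTK1 stay between 0.70 and 0.92 in both.

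The members differed most in one animal. In cow 489215 the median member stood 0.93 on the log2 scale above the median of the other 5 cows, against 0.02 for all genes, and 16 of the 44 members were at least 2-fold above it, against 11.2% of all genes. By the same measure the 134 other redox genes tested, described below, were at 0.23, with 46.3% highest in this cow. Of their lists, metal-binding defence was at 0.67, thiol partners at 0.62, the NRF2 system at 0.58 and glutathione turnover at 0.56. NADPH sources were at 0.23, other selenoproteins at -0.17 and producers of reactive oxygen at -0.28. The members took 0.552% of the reads in cow 489215 and 0.372% to 0.421% in the others. Within LF/LCL the median SD of the members was 0.21 on the log2 scale, against 0.17 over all genes, and between SF/SCL cows 856 and 97 it was 0.14, against 0.13. With cow 489215 included the median SD in SF/SCL was 0.58 for the members and 0.53 over all genes. Of the 10 markers listed for secretory epithelium that were tested, mostly general epithelial genes, 8 were also highest in this cow (80.0%). The median of the 10 was 0.78 above the other cows on the log2 scale. PAX8 of that list was instead lowest in it, at 469 normalized counts, and OVGP1, which was not tested, was at 730. Smooth muscle and uterine markers were highest in it as sums, at 1235372 and 9056 normalized counts. Of the 9 smooth muscle markers 5 were highest in it, while CALD1 and SYNPO2 were lowest, at 8096 and 9453. Of the 4 uterine markers tested 2 were highest in it, and SPP1 was lowest, at 43.9. Other lists were not raised as much. By the median of the same log2 ratio, ciliated epithelium markers were at -0.30 (0 of 13 highest in it) and leukocyte markers at -0.76 (1 of 11). Fibroblast markers were at 0.08 (0 of 8) and endothelial markers at 0.16 (2 of 7). The part of tissue composition was not tested.

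**Figure D5:**
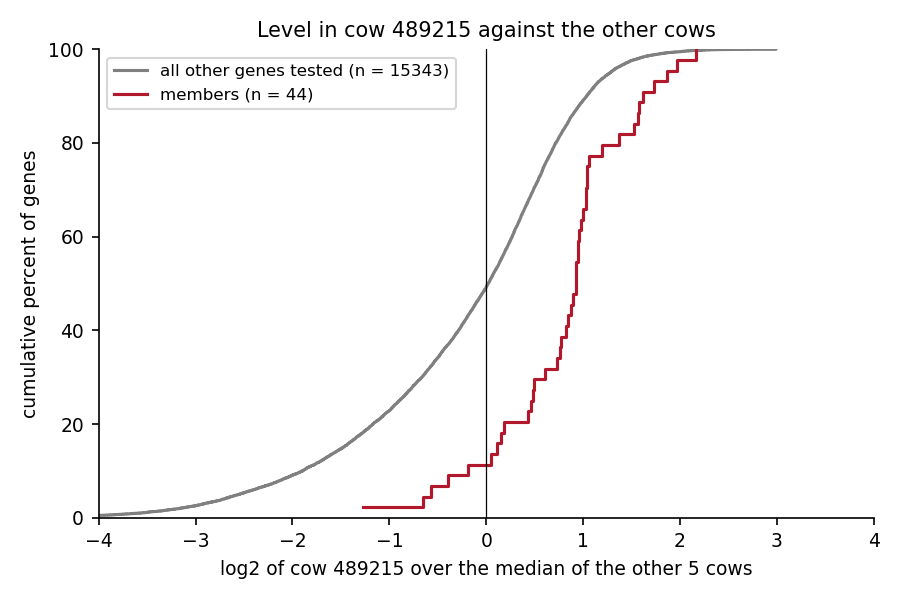
Cumulative percent of genes (vertical axis) by the log2 ratio of cow 489215 to the median of the other 5 cows (horizontal axis), for the 44 members (red) and all other genes tested (grey). The red curve lies to the right of the grey one, with medians of 0.93 for the members and 0.02 for all genes tested.

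Around these members, 153 other redox genes were listed (thiol partners, glutathione turnover, NRF2 system, NADPH sources, other selenoproteins, producers of reactive oxygen and metal-binding defence), of which 134 were tested. Limma called 0 of them with all cows. At an unadjusted p under 0.05, 10 were higher in SF/SCL and 7 in LF/LCL, against 4.19% and 4.48% of all genes. DESeq2 called 7 higher in SF/SCL and 5 in LF/LCL, against 1.38% of all genes in each direction. Without cow 489215 limma called 16 of 135 higher in SF/SCL and 14 in LF/LCL, against 10.3% and 7.92%. The shares of limma without cow 489215 lie near those of all genes. No test of these lists as sets was run, so none of these counts is a result about them. The log2 fold changes that follow are with all cows and have an adjusted p of 0.351 or more in limma. The 17 genes at an unadjusted p under 0.05 all had the same sign without cow 489215, and 15 of them, all but LAP3 and SRXN1, were then called. That fit shares all its cows with the one that picked these genes, so it is no independent support. The same counts over all genes are not given.

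Of the 28 genes of the NRF2 system tested, 15 were higher in SF/SCL by sign and 13 in LF/LCL, with a median log2 fold change of 0.05, and 4 were higher in SF/SCL at an unadjusted p under 0.05, where 4.19% of all genes were. NFE2L3, a relative of NRF2, had 1201, 1168 and 1131 normalized counts in LF/LCL and 2050.1, 3143 and 2906 in SF/SCL (log2 fold change of 1.19). EPHX1, the microsomal epoxide hydrolase, had 2249, 2241 and 1865 against 4783, 3645 and 4347 (1.00). For both genes all SF/SCL cows were above all LF/LCL cows and DESeq2 called the difference, with adjusted p-values of 0.00025 and 0.000688. BLVRA, biliverdin reductase, and the adaptor SQSTM1, which sequesters the NRF2 inhibitor KEAP1, had log2 fold changes of 0.79 and 0.43. KEAP1 itself had a log2 fold change of 0.07, and of 0.05 without cow 489215. NFE2L3 and EPHX1 were at 1.06 and 1.11 without that cow.

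Among the NRF2 targets that serve the thioredoxin system, SRXN1, sulfiredoxin, which repairs overoxidized peroxiredoxins, had 69.1, 104 and 115 normalized counts in LF/LCL and 36.5, 49.3 and 55.3 in SF/SCL. All 3 SF/SCL cows were below the LF/LCL cows, as for TXNRD1 (log2 fold change of -1.0, adjusted p of 0.507 in limma and 0.128 in DESeq2). MSRB3, a methionine sulfoxide reductase, was also lower in SF/SCL, at -0.65. Of the 20 thiol partners tested, these 2 were higher in LF/LCL at an unadjusted p under 0.05, where 4.48% of all genes were, and 13 of the 20 were higher in SF/SCL by sign.

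Of the 22 other selenium genes tested, 12 were higher in SF/SCL by sign and 10 in LF/LCL, with 1 and 2 at an unadjusted p under 0.05, and of the 17 NADPH sources 7 were higher in SF/SCL and 10 in LF/LCL, with 0 and 2, against 4.19% and 4.48% of all genes. LRP2, megalin, a receptor that takes up selenoprotein P among many ligands, had 9318, 13394 and 14466 normalized counts in LF/LCL and 1161, 3167 and 1331 in SF/SCL. The groups were far apart (log2 fold change of -2.84 ± 0.41 (SE), adjusted p of 0.351 in limma, and -3.29 without cow 489215). SEPHS2, which makes the selenium donor for selenoproteins, had 3585, 3279 and 3838 against 1666, 2669 and 1746 (-0.85), while SELENBP1, a selenium-binding methanethiol oxidase, was at 1.23. ALDH1L1 and ALDH1L2, folate enzymes that yield NADPH in cytosol and mitochondria, were at -2.66 and -1.17, the first on 2.17 to 86.4 normalized counts. Of the remaining lists, GGT6 and LAP3 of glutathione turnover were at 1.11 and 0.47, both MT1E metallothionein entries at 1.73 and 1.92, the mitochondrial uncoupling protein UCP2 at 1.14, and the peroxisomal oxidase ACOX3, a source of hydrogen peroxide, at -0.64.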

How the data were processed

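Isthmus RNA of 6 cows, 1 library each, was analysed (3 LF/LCL, 3 SF/SCL, as the sample titles give them). The authors selected polyadenylated RNA, sequenced paired ends, aligned the filtered reads to the masked UMD3.1 assembly with TopHat2 2.0.8 and Bowtie2 2.1.0, used HTSeq 0.5.4p2 to count the reads of each Ensembl gene that mapped uniquely, and divided the counts by DESeq 1.12.1 size factors. Whether counting used the strand is not given in the sources used here. The deposited signal values are these normalized counts. Every one of the 147696 values was a whole multiple of the value of 1 read in its library (100%, within 0.01 reads), so whole reads were recovered, 23899117 to 34193164 per library. Reads carry no molecular identifiers, so intervals cover counting error only.

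Symbols are those in the gene names of the deposited values; 19971 genes have one, and 2979 genes share theirs. The members and lists were chosen with earlier results of these data known. No genome or sequence table of this assembly was used, so the planned count of antioxidant response elements in promoters was not run and no positions or sequences are given.

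The 15387 genes whose mean exceeded both 5 and the SD were tested with limma 3.58.1 in R 4.3.3 (trend and robust) on log2(value + 1), two-sided, threshold 0.05 after Benjamini-Hochberg adjustment. The recovered reads were also tested with DESeq2 1.42.0 and edgeR 4.0.16; DESeq2 left 308 genes without an adjusted p. Pseudocounts, filters, scalings, array weights and leaving out each cow were tried. The steps were tested on simulated counts. Named members were those at an unadjusted p under 0.05, those called by DESeq2 or without cow 489215, those the study names, and the best known member of each role; GSTM3, GSTA4, PRDX2, GPX7 and GCLM entered by the calls without that cow. Members outside that rule, such as PRDX1, MGST3, GPX8, TXN2, GSS and GSTM2, were chosen after their values were seen, and so were KEAP1 and the examples of families. Summaries and plots were made in Python 3.11.15 (pandas 2.3.3, numpy 2.4.6, scipy 1.17.1, matplotlib 3.10.9).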

Additional observations from a re-analysis of the deposited data

How the results depend on the processing

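Over 16 settings, 14 of the 25 named members with a fit kept the sign of their log2 fold change, PRDX6, MGST1, MGST2, GSTK1, GPX2, SELV, TXNRD1, GPX7 and GCLM among them. DESeq2 called 416 genes and 4 members higher in SF/SCL, and array weights (0.0477 for cow 489215, 1.06 to 4.26 for the others) called 4581 genes, 8 members higher in SF/SCL and 8 in LF/LCL, with 9 and 10 at an unadjusted p under 0.05. Without a filter 1 member was higher in LF/LCL at an unadjusted p under 0.05. With 1 cow left out at a time, limma called 0 to 2827 genes, 0 to 5 members higher in SF/SCL and 0 to 5 in LF/LCL, and each highest value came without cow 489215. At an unadjusted p under 0.05 these fits gave 4 to 7 members higher in SF/SCL and 1 to 10 in LF/LCL, 10 without cow 489215 and 1 without any other cow. Groups did not overlap for 8 to 13 members higher in SF/SCL (13 without cow 856) and for 2 to 10 higher in LF/LCL (10 without cow 489215). Smaller groups fail to overlap more easily. The shares of all genes at an unadjusted p under 0.05 or without overlap are not given for these fits, so these counts are no result about the members. The other redox genes called ranged from 0 to 16 in SF/SCL and 0 to 14 in LF/LCL.

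Log2 fold changes that turned sign were those of NXN (-0.026 by library size alone, -0.021 with TMM rescaling, -0.24 with array weights), GPX3 (-0.049, -0.0048 and -1.17 in the same order), GSTA4 (0.001 with DESeq2 size factors in edgeR and 0.0012 in DESeq2), PRDX2 (0.0002 with TMM in edgeR, 0.034 with DESeq2 size factors and 0.0345 in DESeq2), and, with array weights, GSTA2 (-0.18), GSR (-0.16) and NQO1 (-0.67). When cows were left out, NXN ran from -0.25 to 0.18, GPX3 from -0.47 to 0.61, GSTA4 from -0.68 to 0.086, PRDX2 from -0.56 to 0.12, GSTA2 from -0.11 to 0.77, NQO1 from -0.54 to 0.60, GSTM3 from -0.97 to 0.016, SOD2 from -0.045 to 0.44, GCLC from -0.13 to 0.39 and SELT from -0.017 to 0.28. The cause of these changes was not tested. Members higher in SF/SCL by sign numbered 31 to 38 across the scalings and 25 with array weights. No paired analysis was possible because the cow numbers of the groups do not overlap. With 3 cows a group, the design limits what the tests can call, and SELV, at 6 to 46 reads, is also limited by depth. Leaving out cow 489215 was motivated by the data, as its library had been seen to stand apart.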

Other observations

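Some members varied more among the 3 LF/LCL cows than the groups differed, and these values belong to no comparison. GSTA5, an alpha class glutathione transferase that did not pass the filter because its SD exceeded its mean, was counted at 55, 303 and 8 reads in LF/LCL cows 617, 79 and 527 and at 779, 42 and 209 reads in SF/SCL cows 856, 489215 and 97, a 40.5-fold range of normalized counts within LF/LCL. GSTA1, of the same class, had 67, 3 and 110 reads in LF/LCL and 41, 102 and 122 in SF/SCL, a 34.3-fold range. The 2 genes were not high in the same cows: cow 79 had the most GSTA5 reads and the fewest GSTA1 reads of its group. GPX5 ranged 4.17-fold, GPX3 3.63-fold and GSTT3 3.21-fold among the LF/LCL cows. PRDX6 and PRDX4, in contrast, ranged 1.06-fold there, the narrowest ranges among those named here.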
